A study of Rattus norvegicus with 30 samples.

Results

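The subject is a small gene set of the vascular endothelial growth factor (VEGF) system through nerve repair: Vegfa (ENSRNOG00000019598), Flt1 (ENSRNOG00000000940) and Kdr (ENSRNOG00000046829). They were taken by these 3 Ensembl IDs, with no rule on their values, from a table of 32545 rat genes. Earlier results of these data were known when the 3 were chosen. All 3 were present and passed the filter on low counts with 16015 genes in all. The samples were 30 bulk poly(A) RNA libraries from adult wild-type female rats, taken at the median nerve, which runs through the forelimb. Control was healthy nerve without treatment (5 libraries, labelled day 0). In every other group the nerve had been cut to leave an 8 mm gap, bridged with a 10 mm conduit of chitosan, a polysaccharide made from chitin, and the tissue grown inside the conduit was collected. Immediate repair, with the conduit placed at the time of injury, was sampled at day 7 (4 libraries), day 14 (4) and day 21 (5) after repair. Delayed repair, with the conduit placed 3 months after injury, was sampled at day 7 (5 libraries), day 14 (4) and day 21 (3). The conduit tissue forms anew after the repair, so it need not hold the cell types of intact nerve, and the cells present were not counted. Whether the numbered replicates are separate animals is not said in the labels. The p-values measure only the spread between these samples, which may be technical. Total counts lay between 11958242 and 17334752 per library.

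Vegfa encodes VEGF-A, a secreted growth factor that drives the sprouting of blood vessels and makes vessels leaky. Its transcript is known to rise when oxygen is short and in activated macrophages and other wound cells. Kdr encodes VEGF receptor 2, the tyrosine kinase through which endothelial cells answer VEGF-A. Flt1 encodes VEGF receptor 1, which binds VEGF-A tightly with weak kinase activity and exists also as a soluble decoy; besides endothelium it is made by monocytes and macrophages. In a nerve conduit, new vessels enter the bridge ahead of the regrowing Schwann cells and axons. In bulk tissue a lower transcript level can come from fewer cells of a type or from less RNA per cell, and these cannot be told apart. The files do not pair other gene IDs with names, so markers of endothelium, of nerve and of immune cells were not analysed here and the labelled tissue was not checked against them.

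Upstream sequences of the 3 genes are shown as background. A link of the levels to these sequences was not tested. They come from RefSeq promoter windows of build GRCr8, whose first 250 bases lie before the start of a transcript, and all 3 genes matched by symbol. The build behind the counts is not given in the sources used here. Capitals mark every match, on either strand, to a GC box (GGGCGG), to a hypoxia response core (ACGTG or GCGTG), to a cyclic AMP response element (TGACGTCA), to an AP-1 site (TGANTCA) or to a TATA box (TATAAA). The Vegfa stretch is chr9:22452604-22452853, the Kdr stretch is chr14:32571813-32572030 and the Flt1 stretch is chr12:12333295-12333324, all on the plus strand.
Vegfa: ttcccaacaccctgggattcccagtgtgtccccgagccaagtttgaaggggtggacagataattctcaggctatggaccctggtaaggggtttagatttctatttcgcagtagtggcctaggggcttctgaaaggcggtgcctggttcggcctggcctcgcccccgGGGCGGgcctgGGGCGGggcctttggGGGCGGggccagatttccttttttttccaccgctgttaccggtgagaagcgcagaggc
Kdr: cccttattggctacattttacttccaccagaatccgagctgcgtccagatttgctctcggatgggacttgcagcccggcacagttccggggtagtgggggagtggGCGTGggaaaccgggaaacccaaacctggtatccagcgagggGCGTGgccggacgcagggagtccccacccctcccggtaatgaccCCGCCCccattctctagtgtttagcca
Flt1: gggggacccctTGACGTCActagaaggagg
Vegfa had 3 GC boxes within 84 bases of its start and no match to the other 5 motifs in this window. Its well-studied hypoxia element lies further upstream than the window reaches. Kdr had 1 GC box and 2 matches to GCGTG, at 145 and 103 bases before the start used for its window. The Kdr stretch shown is the first 218 bases of that window and stops at an earlier annotated start. The Flt1 window begins after an earlier annotated start of the gene, so 30 bases of it are shown. They hold its cyclic AMP response element, 124 bases before the start used, and the rest of that window held 3 GC boxes, 1 GCGTG and 1 TATA box. Over all 33465 rat windows of 250 bases, 30.5% held a GC box, 25.9% GCGTG, 16.6% ACGTG, 12.9% TATAAA, 6.34% TGANTCA and 1.59% TGACGTCA. These matches are letters in a window and were not measured as binding sites.

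Vegfa was the member that moved most. It was far above healthy nerve at day 7 of both repairs and came down by day 14 to a level that was still above healthy nerve. Levels are given as CPM, the read count of a gene scaled to a common library size. The 5 control nerves measured 60.3, 77.0, 37.4, 74.8 and 65.8, a mean of 63.1 ± 15.9 (SD, n = 5). At day 7 of immediate repair the libraries measured 1429, 424, 963 and 947 CPM (941 ± 411, SD, n = 4). At day 7 of delayed repair they measured 1316, 732, 755, 559 and 351 CPM (743 ± 359, n = 5). Every day 7 library thus lay above every control library and above every library of day 14 or day 21, although the day 7 libraries themselves differed up to 3.75-fold within a group. Immediate repair measured 102, 79.3, 141 and 95.7 CPM at day 14 (105 ± 26.1, n = 4). At day 21 of immediate repair the values were 131, 119, 90.0, 119 and 102 CPM (112 ± 16.1, n = 5). Delayed repair measured 121, 147, 139 and 89.1 CPM at day 14 (124 ± 25.5, n = 4), and 118, 111 and 196 CPM at day 21 (142 ± 47.2, n = 3). The lowest of these 16 later libraries, immediate day 14 replicate 2 at 79.3 CPM, lay just above the highest control library at 77.0 CPM. Ordered by mean, the groups ran immediate day 7, delayed day 7, delayed day 21, delayed day 14, immediate day 21, immediate day 14 and control. Neighbours in that order overlapped except at 2 steps, below the day 7 groups and above control.

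**Figure D1:**
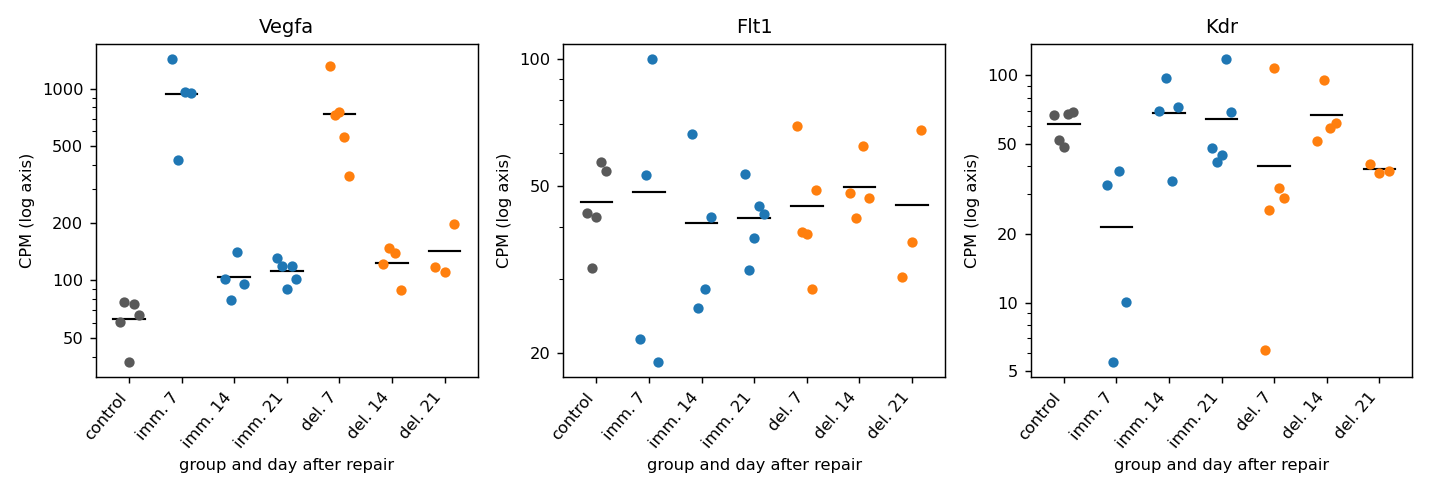
Level of Vegfa, Flt1 and Kdr in each library, in CPM on a log axis, by group and day after repair (imm. for immediate and del. for delayed repair). Points are libraries and black lines group means; Vegfa at day 7 stands at 351 to 1429 CPM against 37.4 to 77.0 CPM in control nerve, Flt1 shows no such step, and Kdr is most scattered at day 7.

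Against control, Vegfa was 14.9-fold higher at day 7 of immediate repair, or 3.90 on the log2 scale (SE 0.34; adjusted p = 3.92e-10 by the edgeR quasi-likelihood test with Benjamini-Hochberg adjustment). The rise at day 7 of delayed repair was 11.8-fold, or 3.56 on the log2 scale (SE 0.32, adjusted p = 9.42e-10). Changes against control were common: 65.2% of all tested genes passed at day 7 of immediate and 64.4% at day 7 of delayed repair, in either direction. Within that background, 94.4% of tested genes had a lower log2 fold change than Vegfa in the immediate and 93.1% in the delayed comparison. Both repairs were set against the same 5 control libraries, so these comparisons are not independent of each other.

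The later excess of Vegfa over control was about 2-fold and passed the test in 3 of 4 groups. At day 21 it was 1.78-fold after immediate repair (log2 0.83, SE 0.30, edgeR adjusted p = 0.0226) and 2.25-fold after delayed repair (log2 1.17, SE 0.33, adjusted p = 0.00575). At day 14 of delayed repair it was 1.96-fold (log2 0.97, SE 0.31, adjusted p = 0.0104). Day 14 of immediate repair, at 1.66-fold, just missed the threshold of 0.05 (log2 0.73, SE 0.31, adjusted p = 0.0518). The shares of tested genes that passed were 51.4% and 47.7% at days 14 and 21 of immediate repair and 51.9% and 44.3% at those days of delayed repair. In all 6 comparisons with control the Vegfa libraries did not overlap. The share of all tested genes that were higher without overlap was 24.3%, 24.6% and 20.4% at days 7, 14 and 21 of immediate repair, and 22.1%, 26.6% and 26.3% after delayed repair. The day 14 call of immediate repair was made in 5 of the alternatives, among them DESeq2 (log2 0.73, adjusted p = 0.0436). The day 21 calls were lost without control replicate 3, the control library lowest in Vegfa (immediate, log2 0.69, edgeR adjusted p = 0.0685), or without delayed day 21 replicate 3, the highest of its group (delayed, log2 0.86, adjusted p = 0.0701).

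The fall of Vegfa from day 7 was among the largest in the table. After immediate repair it fell by 3.17 on the log2 scale from day 7 to day 14 (SE 0.36, edgeR adjusted p = 6.16e-06), and it fell by 3.07 from day 7 to day 21 (SE 0.32, adjusted p = 8.19e-07). After delayed repair it fell by 2.58 to day 14, or 5.99-fold (SE 0.34, edgeR adjusted p = 3.12e-05), and it fell by 2.39 to day 21 (SE 0.38, adjusted p = 0.000158). Counted from the most negative change, Vegfa stood at place 142 of 16015 for day 14 and 127 for day 21 in the immediate series, and at 344 and 413 in the delayed series. The shares of tested genes called in either direction were 33.7% and 43.1% for days 14 and 21 against day 7 of immediate repair, and 34.7% and 26.1% for delayed repair. Genes lower without overlap, as Vegfa was in each of these 4 comparisons, made up 10.9% and 11.4% after immediate and 10.6% and 8.66% after delayed repair. Between days 14 and 21 Vegfa differed by a log2 fold change of 0.10 (95% interval -0.54 to 0.74) after immediate repair and 0.19 (-0.53 to 0.92) after delayed repair. Neither passed the test (edgeR adjusted p = 0.976 and 1). Of all tested genes, 0.256% passed in that step after immediate repair and 0% after delayed repair. In the delayed step 620 genes had an unadjusted p under 0.05, DESeq2 called 36 and limma voom with sample quality weights 70. Without any difference, a share of 0.05 of the 16015 tested genes would have such a p, which is more than 620.

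**Figure D2:**
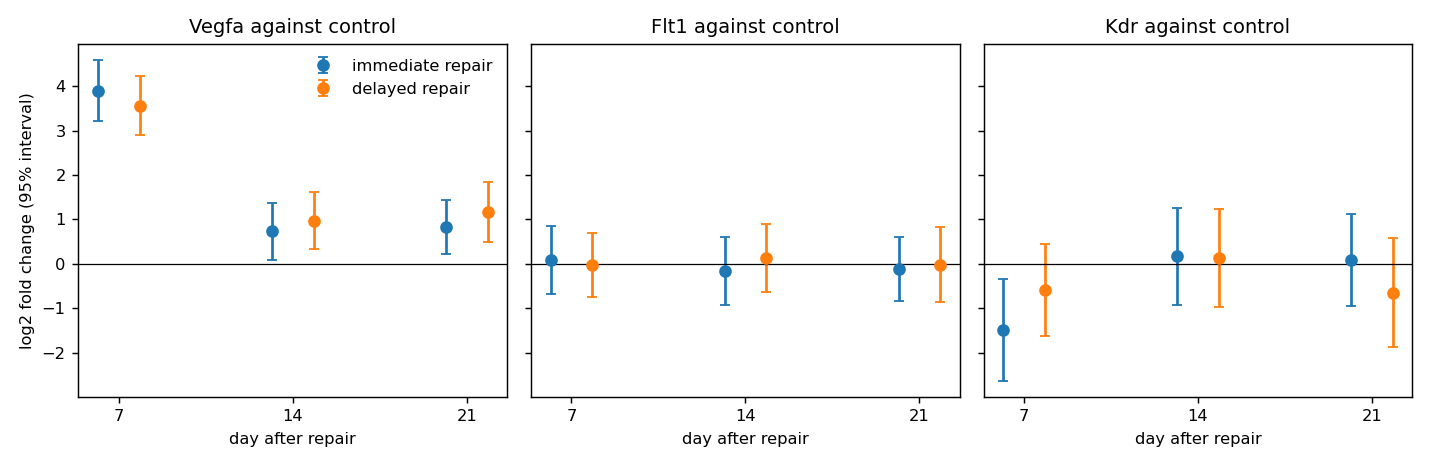
Log2 fold change of each gene against the 5 control nerves, by day after repair, for immediate and delayed repair; bars are 95% intervals from the edgeR fit. Vegfa drops from 3.90 and 3.56 at day 7 to between 0.73 and 1.17 later, the intervals of Flt1 all include 0, and Kdr lies below 0 with its whole interval in immediate repair at day 7 alone.

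Kdr went the other way at day 7 of immediate repair. Its means at day 14 of both repairs lay near that of control. Control nerves measured 67.3, 51.9, 48.5, 67.6 and 69.2 CPM (60.9 ± 9.84, SD, n = 5). At day 7 of immediate repair the libraries measured 32.8, 5.47, 38.1 and 10.1 CPM (21.6 ± 16.2, n = 4), all below the lowest control. At day 7 of delayed repair they measured 6.19, 25.6, 108, 31.9 and 28.9 CPM (40.1 ± 39.3, n = 5). Thus 4 of the 5 delayed libraries lay below every control, while replicate 3 lay above every control and 17.5-fold above replicate 1. The count behind the lowest of these values was 66 reads, so counting error is small beside that spread. At day 14 Kdr measured 69.4, 97.6, 34.4 and 72.9 CPM after immediate repair (68.6 ± 26.0, n = 4) and 51.5, 95.1, 58.7 and 61.6 CPM after delayed repair (66.7 ± 19.4, n = 4). Both day 14 groups overlapped the control range. At day 21 of immediate repair it measured 47.8, 41.6, 44.9, 118 and 69.4 CPM (64.3 ± 31.9, n = 5), with replicate 4 far above the rest. At day 21 of delayed repair it measured 40.9, 37.1 and 38.0 CPM (38.7 ± 1.99, n = 3), all below the lowest control. By mean the order was immediate day 14, delayed day 14, immediate day 21, control, delayed day 7, delayed day 21 and immediate day 7, and each neighbour overlapped the next.

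Kdr was 2.81-fold lower than control at day 7 of immediate repair, or -1.49 on the log2 scale (SE 0.56, edgeR adjusted p = 0.0215). In that comparison 65.2% of tested genes passed in either direction, and 21.7% had a lower log2 fold change than Kdr. The libraries did not overlap, as in the 31.7% of all tested genes that were lower without overlap in that comparison. From day 7 it rose 3.16-fold to day 14 (log2 1.66, SE 0.58, edgeR adjusted p = 0.0287) and 2.97-fold to day 21 (log2 1.57, SE 0.56, adjusted p = 0.0253) of immediate repair. Between those days 33.7% of tested genes passed for day 14 and 43.1% for day 21, in either direction. The day 21 libraries lay above all day 7 libraries, which was so for 16.8% of tested genes. The 3 calls of Kdr rested on few libraries. Without immediate day 7 replicate 2 all 3 were lost (log2 -1.17, 1.34 and 1.25, edgeR adjusted p = 0.0743, 0.0828 and 0.0809), and likewise without replicate 4 of that group (log2 -1.26, 1.43 and 1.34, adjusted p = 0.0721, 0.0921 and 0.0837). Without immediate day 21 replicate 4 the rise to day 21 was 1.23 on the log2 scale and did not pass (edgeR adjusted p = 0.0748). The rise to day 14 was also lost without immediate day 14 replicates 1, 2 or 4 (log2 1.66, 1.44 and 1.63, edgeR adjusted p = 0.0503, 0.0696 and 0.0528). With only the groups compared in the fit, neither rise passed (edgeR adjusted p = 0.0866 to day 14 and 0.0685 to day 21), while DESeq2 and limma voom made all 3 calls.

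After delayed repair no comparison of Kdr passed. At day 7 the log2 fold change against control was -0.60 (95% interval -1.64 to 0.44, edgeR adjusted p = 0.305). Without the high replicate 3 it was -1.39 (edgeR adjusted p = 0.0126), and the change from day 7 to day 14 went from 0.73 (adjusted p = 0.295) to 1.52 (adjusted p = 0.0186). The change from day 7 to day 21 went from -0.05 to 0.74 without that library, and neither value passed. At day 21 the log2 fold change against control was -0.65 (95% interval -1.88 to 0.57, adjusted p = 0.394), with no overlap between libraries, as for 27.2% of tested genes in that direction. With only the delayed day 21 and control libraries in the fit, the difference passed (log2 -0.62, edgeR adjusted p = 0.00469); in the fit of all libraries the spread of Kdr in other groups enters its test. Delayed day 21 also lay below delayed day 14 without overlap, as did 3.54% of tested genes, at a log2 fold change of -0.79 (95% interval -2.06 to 0.49, adjusted p = 1). Kdr stood 0.17 and 0.08 above control on the log2 scale at the later days of immediate repair and 0.13 above it at day 14 of delayed repair, with intervals reaching up to 1.27 and down to -0.96.

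Flt1 did not pass in any of the 15 comparisons of groups by the edgeR test. Its lowest unadjusted p was 0.468, and DESeq2 and limma voom with sample quality weights also called it in 0 of 15. Control nerves measured 43.2, 31.8, 42.2, 57.0 and 54.2 CPM (45.7 ± 10.1, SD, n = 5). At day 7 of immediate repair the libraries measured 21.6, 53.0, 100 and 19.0 CPM (48.4 ± 37.8, n = 4), 2 libraries below and 1 above the control range. The log2 fold change against control, 0.08, rested on replicate 3 and was -0.55 without it (edgeR adjusted p = 0.178). Delayed repair at day 7 gave 69.6, 38.7, 38.3, 28.4 and 48.9 CPM (44.8 ± 15.6, n = 5). At day 14 the values were 66.6, 25.6, 28.4 and 42.2 CPM after immediate repair (40.7 ± 18.7, n = 4) and 48.2, 41.9, 62.2 and 46.8 CPM after delayed repair (49.8 ± 8.73, n = 4). At day 21 they were 53.5, 31.6, 37.5, 44.8 and 42.8 CPM after immediate repair (42.0 ± 8.20, n = 5) and 30.3, 36.8 and 68.0 CPM after delayed repair (45.0 ± 20.2, n = 3). Without immediate day 7 replicate 3 the changes from day 7 to days 14 and 21 of that repair also turned from -0.25 to 0.38 and from -0.21 to 0.43, and none passed. The 7 group means lay between 40.7 and 49.8 CPM and each overlapped its neighbour in the order. Over the 6 comparisons with control the 95% intervals of the log2 fold change lay between -0.94 and 0.89, which leaves room for a level 1.86-fold that of control in the delayed and 0.521 of it in the immediate group at day 14.

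Delayed and immediate repair were compared at each day, the question the design puts. None of the 3 genes passed on any day, nor in the test of a repair by day interaction (edgeR quasi-likelihood F test, adjusted p = 1 for each). Delayed repair differs from immediate repair also in the time since injury, and these cannot be told apart. For Vegfa the log2 fold change of delayed over immediate repair was -0.34 at day 7 (95% interval -0.98 to 0.30), 0.25 at day 14 (-0.43 to 0.92) and 0.34 at day 21 (-0.35 to 1.03). For Flt1 it was -0.11 (-0.88 to 0.65), 0.29 (-0.52 to 1.10) and 0.10 (-0.74 to 0.94) on those days. Kdr had the widest intervals, with 0.89 at day 7 (-0.23 to 2.02), -0.04 at day 14 (-1.20 to 1.12) and -0.73 at day 21 (-1.96 to 0.49). The Kdr value at day 7 rested on delayed replicate 3, without which it was 0.099, and was 1.61 by limma voom. The Flt1 value at day 7 was 0.52 without immediate replicate 3. The adjusted p of these 9 comparisons lay between 0.80 and 1 (edgeR). With all libraries, more than 2-fold was outside the fitted interval for Vegfa at days 7 and 14 and Flt1 at days 7 and 21. For Kdr it was inside on every day. These intervals rest on a spread shared by all groups. The SD of log2 CPM was 1.13 for Flt1 at immediate day 7 and 0.61 at delayed day 21, against 0.33 in control. For Vegfa it was 0.74 at immediate and 0.69 at delayed day 7, against 0.42 in control. The intervals can be too narrow there, so a 2-fold difference is not excluded. In Kdr at day 21 the 3 delayed libraries (37.1 to 40.9 CPM) lay below all 5 immediate libraries (41.6 to 118 CPM), by a gap smaller than the SD of either group; 2.02% of tested genes were lower without overlap in that comparison. Of all tested genes, 0.712% passed between the repairs at day 7, 0% at day 14 and 0.05% at day 21, and 0% passed in the interaction test. The day 7 count of 114 genes depended on the method, from 0 by limma voom, with a replicate block or with only the groups compared to 341 by DESeq2. At day 21 the count of 8 became 0 with a replicate block or no filter on low counts and 58 by limma voom. At day 14, 244 genes had an unadjusted p under 0.05, DESeq2 called 7 and limma voom 2. In the interaction test 951 had an unadjusted p under 0.05, DESeq2 called 115 and limma voom 0. Without any difference, a share of 0.05 of the 16015 tested genes would have such a p, which is more than 244 and less than 951.

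**Figure D3:**
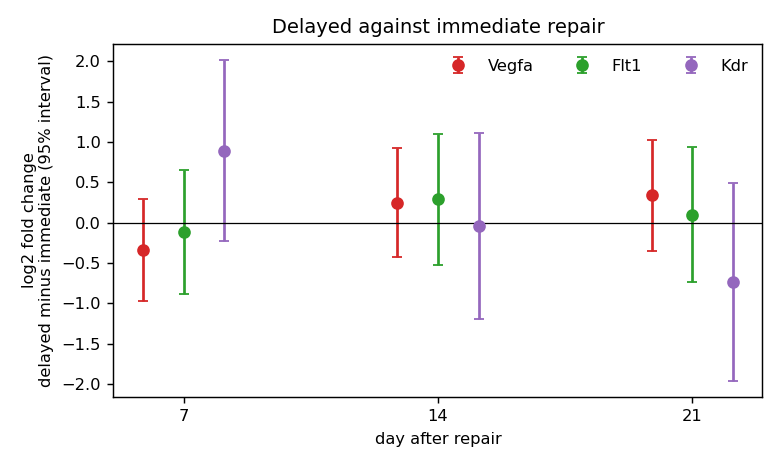
Log2 fold change of delayed over immediate repair for the 3 genes, by day after repair, with 95% intervals from the edgeR fit. All 9 intervals include 0, and those of Kdr are the widest, from -0.23 to 2.02 at day 7.

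The ratio of 2 genes inside a library does not depend on how the library was scaled. Gene length sets the level of such a ratio of counts, so only its change between groups is read. The ratio of Vegfa to Kdr counts lay between 0.771 and 1.48 in control nerve, between 25.3 and 93.8 at day 7 of immediate repair, and between 6.99 and 213 at day 7 of delayed repair. The ratio thus lay above every control in all 9 day 7 libraries. The rise of Vegfa given above enters this ratio, so it is not separate evidence of a change in Kdr. In delayed day 7 replicate 3 Kdr itself lay above every control, at 108 CPM. The mean log2 ratio was 5.71 above control in the immediate and 4.60 above control in the delayed group (two-sided exact permutation test, p = 0.00794 for each, the smallest these group sizes allow; adjusted p = 0.0437 over 33 such tests). The ratio of Vegfa to Flt1 was 0.887 to 2.42 in control nerve, against 8.00 to 66.3 at day 7 of immediate and 7.19 to 19.7 at day 7 of delayed repair. Its mean log2 ratio was 4.04 and 3.53 above control (exact permutation p = 0.00794, adjusted p = 0.0437 for each). From day 7 to day 21 of immediate repair the log2 ratio fell by 4.82 for Vegfa to Kdr and by 3.06 for Vegfa to Flt1 (exact permutation p = 0.00794, adjusted p = 0.0437 for each). These 6 were the tests that passed of the 33. All 4 calls on immediate repair were lost without any 1 library of either group (exact permutation, adjusted p up to 0.105), where the smaller groups also raise the smallest p the test can give. Both delayed calls were lost without any 1 control library (exact permutation, adjusted p up to 0.0655). The Vegfa to Kdr difference at day 7 of delayed repair was 3.82 on the log2 scale without delayed replicate 1. With 3 delayed libraries at day 21 the exact test could not go below p = 0.0179, and the 3.49-fold excess of the Vegfa to Kdr ratio over control there, without overlap (2.89 to 5.16 against 0.771 to 1.48), had an adjusted p of 0.0655. At day 21 of delayed repair the ratio of Vegfa to Kdr also lay above all immediate day 21 libraries (1.01 to 2.85), a mean log2 difference of 0.92 that did not pass (exact permutation p = 0.0536, adjusted p = 0.102).

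The balance of the receptors changed less clearly. Flt1 to Kdr counts stood at 0.613 to 0.870 in control nerve, 0.657 to 9.68 at day 7 of immediate repair and 0.355 to 11.2 at day 7 of delayed repair. In 3 of the 4 immediate and 4 of the 5 delayed libraries at day 7 the ratio exceeded every control. The mean log2 ratio was 1.67 above control at day 7 of immediate repair (exact permutation p = 0.0317, adjusted p = 0.0806). Without immediate day 7 replicate 2, the library lowest in Kdr, it was 0.996, and without replicate 1 it was 2.29. At day 7 of delayed repair it was 1.06 above control (exact permutation p = 0.206, adjusted p = 0.324). Without delayed day 7 replicate 3, the library high in Kdr, that difference was 1.60 and passed (exact permutation, adjusted p = 0.0374), and without replicate 1, low in Kdr, it was 0.35. At day 14 the ratio was 0.262 to 0.959 after immediate and 0.440 to 1.06 after delayed repair, and both ranges held the control range.

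**Figure D4:**
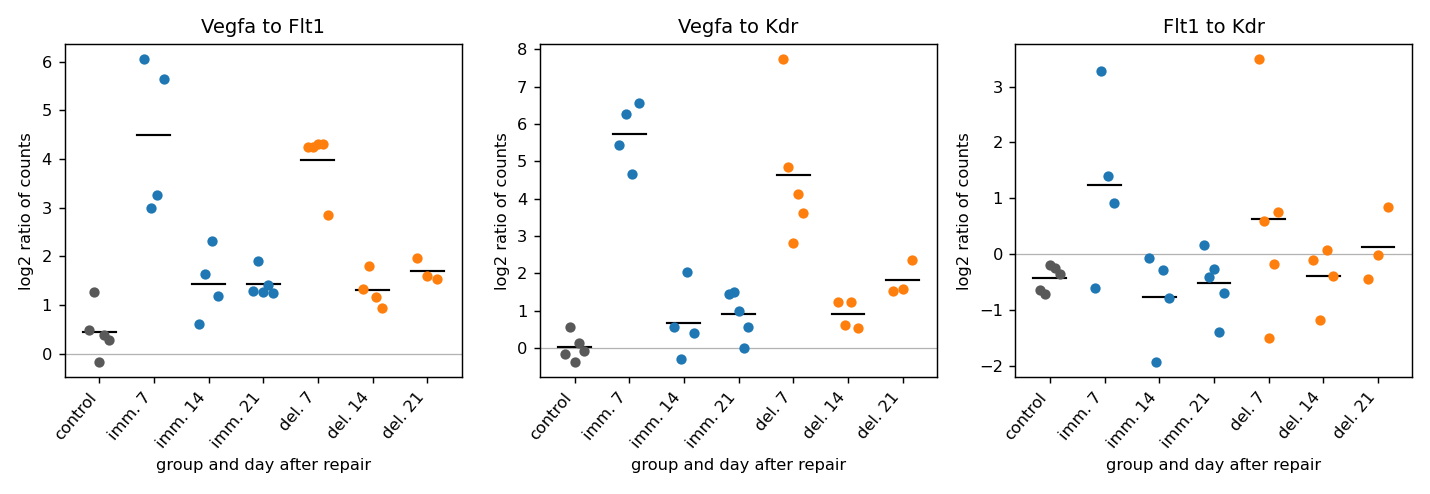
Log2 ratio of the counts of Vegfa to Flt1, Vegfa to Kdr and Flt1 to Kdr within each library, by group and day after repair (imm. for immediate and del. for delayed repair); points are libraries, black lines group means, and the axis ranges differ. The ratios of Vegfa to either receptor at day 7 stand above all control libraries, with mean log2 ratios of 4.49 and 3.99 to Flt1 and 5.73 and 4.62 to Kdr against 0.45 and 0.02 in control nerve.

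How far the libraries of a group differed was measured as the SD of log2 CPM. For Kdr it was 1.34 at day 7 of immediate and 1.45 at day 7 of delayed repair, against 0.24 in control nerve, and 90.0% and 90.3% of tested genes had a lower SD in those day 7 groups. Flt1 had an SD of 1.13 at day 7 of immediate repair (86.1% of tested genes lower) but 0.48 at day 7 of delayed repair (52.9% lower). For Vegfa the SDs were 0.74 and 0.69 (73.2% and 67.9% lower). At day 21 of delayed repair the order was turned, with 0.07 for Kdr (7.12% of tested genes lower), 0.45 for Vegfa and 0.61 for Flt1. The median tested gene had an SD of 0.40 at day 7 of immediate, 0.45 at day 7 of delayed repair and 0.22 in control, so the day 7 groups were more scattered in general. Delayed day 7 replicate 1, with the lowest Kdr and the highest Vegfa of its group, also had the lowest Spearman correlation with control nerve over all tested genes of that group (0.668), and delayed replicate 5, with the lowest Vegfa, had the highest (0.782). In immediate repair at day 7 the lowest correlation was that of replicate 4 (0.633), which was lowest in Flt1 but not in Vegfa or Kdr. The highest there was that of replicate 1 (0.744), which had the highest Vegfa of its group (1429 CPM), the reverse of delayed repair. The part that overall library makeup has in the spread of these genes was not tested.

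Within groups no correlation between the 3 genes passed the test. With each group's mean removed from log2 CPM over the 30 libraries, Vegfa and Kdr had a Pearson r of 0.03 (permutation within groups, p = 0.898, adjusted p = 0.898) and a Spearman rho of 0.04 (permutation p = 0.874). Vegfa and Flt1 had r = 0.05 (permutation p = 0.891) and rho = 0.08 (permutation p = 0.731). Flt1 and Kdr had r = -0.06 (permutation p = 0.843) and rho = -0.04 (permutation p = 0.854). All 3 adjusted p-values of r were 0.898 and all 3 of rho 0.874. Leaving out the 2 libraries farthest from the median of the first gene named took r to -0.18, 0.20 and -0.36. Both genes of a pair are scaled by the same library factor.

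The genes most like each member were sought by Pearson r of log2 CPM over the 30 libraries among 12470 other genes, each averaging 1 or more in log2 CPM. With Vegfa, 623 genes had r over 0.8 and 65 over 0.9. At day 7 of immediate repair 65.2% of tested genes passed against control, so many genes change along with that day. How many such neighbours a typical gene has was not counted, so these counts are not read as particular to Vegfa. The gene nearest to Vegfa was ENSRNOG00000006462 (r = 0.955). Its level went from 23.5 CPM in control to 1180 CPM at day 7 of immediate repair, or 5.65 higher on the log2 scale. For Kdr 2 genes had r over 0.8, and the nearest was ENSRNOG00000014011 (r = 0.806). Its level was 18.7 CPM in control and 0.495 CPM at day 7 of immediate repair (log2 -5.19). No gene reached r of 0.8 with Flt1; the nearest, ENSRNOG00000003956, had r = 0.676. These values describe libraries that fall into distinct groups and share scale factors. The nearest genes were picked on the same libraries, so their change at day 7 follows from the choice and is not separate evidence.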

How the data were processed

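RNA was measured in 30 poly(A) libraries made without strand marking, per the labels' protocols, so reads of overlapping or antisense genes cannot be told apart. The authors deposited raw read counts per gene in 1 table, whole numbers, replicates not pooled. DESeq2 1.38.3, featureCounts 1.5.0-p3 and HISAT2 2.0.5 are named, without their roles, per the submitters' processing notes. The build is not given in the sources used here, nor is the annotation. Columns were matched to samples by library name, and groups came from the titles.

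The deposited counts went into edgeR 4.0.16 (R 4.3.3): filterByExpr by group (16015 of 32545 genes kept, 49.2%), TMM scaling, 1 fit of 7 groups over all libraries and the robust quasi-likelihood test, with p-values adjusted by Benjamini-Hochberg over all tested genes in each comparison and a threshold of 0.05. All groups share an estimate of spread, so a group more scattered than the rest can be tested against too small a spread, and a tighter one against too large a spread. Standard errors and 95% intervals came from the test statistic. CPM used the scaled library sizes, and log2 CPM a prior count of 2. Ratios of counts within a library were compared by two-sided exact permutation tests, 33 in all. Correlations used 100000 permutations within groups.

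The test was checked on simulated counts, with 100 genes changed 2-fold and 100 changed 4-fold. Delayed against immediate repair, it found 47 of the 2-fold genes at day 7 and 48 at day 21. At 4-fold it found 87 on either day. Immediate day 7 against control gave 56 at 2-fold and 82 at 4-fold. False calls numbered 6, 8 and 9 in the same order. Many 2-fold changes were thus missed in these simulations. Each gene was given the same spread in all groups, and no other genes differed between the groups compared. In the data 65.2% of tested genes passed at immediate day 7 against control. The median SD of log2 CPM there was 0.40, and 0.45 at delayed day 7, against 0.22 in control. The simulated rates therefore need not hold for these comparisons. No replicate pair agreed within sampling noise (over 51 pairs, chi-square divided by its degrees of freedom was 14.9 or more). Alternatives were DESeq2 1.42.0, relative log expression and upper quartile factors, no filter, a fit with no other groups, a replicate block, limma 3.58.1 voom with sample quality weights, and leaving out libraries. The 3 IDs came with their symbols. The members, the lists and the alternatives were chosen with earlier results of these data known. The rule for named genes took the members and, where no table pairs IDs with symbols, 1 most alike gene ID for each. Lists of pathway and cell type genes had been written by symbol; 0 of the IDs could be paired with symbols, and the lists were not applied.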

Additional observations from a re-analysis of the deposited data

Results flagged for a closer look

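Each member's CPM and each ratio of counts was searched in groups of 4 or 5 libraries. A library standing apart from the rest was sought by Dixon's gap criterion. With normally distributed values, chance meets it in about 1 of 20 such sets. Of 36 sets, each a measure in a group, 5 met it. The sets share counts and were not on a log scale, so that rate need not hold here. Kdr in delayed day 7 replicate 3, at 108 CPM, stood above the other 4 libraries of its group, which reached 31.9 CPM. In delayed day 7 replicate 1 the ratios of counts to Kdr were high, at 213 for Vegfa to Kdr and 11.2 for Flt1 to Kdr, both resting on a Kdr count of 66. In delayed day 7 replicate 5 the ratio of Vegfa to Flt1 was low, at 7.19 against 18.9 or more in the others. In immediate day 21 replicate 2 that ratio was high, at 3.76 against at most 2.66 in the others.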

How the results depend on the processing

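Of the log2 fold changes under alternatives other than leaving out 1 library, 314 kept their direction and their side of the threshold. In 16 the sign changed, 6 came to pass and 3 no longer passed. The 314 include differences that passed in neither fit. Vegfa at day 14 of immediate repair against control passed with upper quartile factors (0.78), no filter (0.77), only the groups compared (0.78), DESeq2 (0.73) and limma voom (0.63). With a replicate block (0.61) or relative log expression factors (0.73) that difference did not pass. With only the groups compared, Kdr passed at delayed day 21 against control (-0.62) and not at immediate day 14 (1.66) or day 21 (1.56) against day 7. Leaving out delayed day 7 library 5 and immediate day 21 library 4 together, Kdr at immediate day 21 against day 7 did not pass (1.23). The other changes were of sign, in differences that did not pass. For Flt1 at delayed day 21 against day 7 the value was -0.0024 with relative log expression factors, -0.0098 without a filter, -0.0082 with only the groups compared, -0.0028 by DESeq2 and -0.020 by limma voom. For Flt1 against control it was 0.024 (no filter) and 0.052 (only the groups compared) at delayed day 7, and 0.0029 (upper quartile), 0.014 (no filter) and 0.014 (only the groups compared) at delayed day 21. For delayed against immediate repair limma voom gave 0.0025 for Vegfa at day 7 and -0.13 for Flt1 at day 21. Kdr at immediate day 21 against control was -0.16 by limma voom and -0.26 without those 2 libraries. Over all genes, delayed against immediate repair at day 7 gave 114 calls, against 15 with relative log expression factors, 7 without a filter, 0 with a replicate block, only the groups compared or limma voom, and 341 by DESeq2. At day 21 it gave 8, against 57 by DESeq2, 58 by limma voom, 1 with only the groups compared and 0 with a block or no filter. Day 21 against day 14 gave 41 after immediate repair, against 153 by DESeq2, 171 by limma voom, 26 without a filter and 0 with a block or only the groups compared, and 0 after delayed repair, against 36, 70 and, with only the groups compared, 1. With only the groups compared, day 14 against day 7 gave 3021 in place of 5404 (immediate) and 3347 in place of 5557 (delayed), and delayed day 21 against day 7 gave 983 in place of 4179. The 33 ratio differences kept their calls with 0.5 added to each count.

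With the replicate number as a block, no call of the 3 genes changed, and the sign changed for Flt1 (-0.018) and Kdr (0.095) at delayed day 21 against day 7. Over 81 pairs of libraries with the same number the correlation of deviations from the group means averaged 0.0091 and was over 0.1 in 18, and 10 of 30 libraries correlated best with their own number. As the deviations were centred within small groups, these values cannot settle whether libraries with the same number share more than that number.

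Leaving out 1 library at a time changed a call or a sign in the results named here, whose lowest and highest log2 values follow; a group named alone is set against control. Flt1 ran from -0.55 to 0.35 for immediate day 7, -0.48 to 0.0016 for immediate day 14, -0.24 to 0.10 for delayed day 7, -0.00091 to 0.22 for delayed day 14, -0.44 to 0.20 for delayed day 21, -0.57 to 0.076 for delayed day 21 against day 14, -0.32 to 0.32 for delayed against immediate at day 21, -0.41 to 0.23 for delayed day 21 against day 7, -0.38 to 0.52 for delayed against immediate at day 7, -0.59 to 0.38 for immediate day 14 against day 7, -0.12 to 0.38 for immediate day 21 against day 14 and -0.47 to 0.43 for immediate day 21 against day 7. Kdr ran from -1.91 to -1.17 for immediate day 7, -0.048 to 0.39 for immediate day 14, -0.26 to 0.20 for immediate day 21, -1.39 to -0.32 for delayed day 7, -0.088 to 0.24 for delayed day 14, -0.26 to 0.18 for delayed against immediate at day 14, 0.46 to 1.52 for delayed day 14 against day 7, -0.33 to 0.74 for delayed day 21 against day 7, 1.34 to 2.08 for immediate day 14 against day 7, -0.43 to 0.13 for immediate day 21 against day 14 and 1.23 to 1.99 for immediate day 21 against day 7. Vegfa ran from 0.55 to 0.84 for immediate day 14, 0.69 to 0.91 for immediate day 21, 0.86 to 1.32 for delayed day 21, -0.11 to 0.34 for delayed day 21 against day 14 and -0.0089 to 0.28 for immediate day 21 against day 14. The log2 ratio Vegfa to Flt1 ran from 3.52 to 4.53 for immediate day 7, 3.38 to 3.82 for delayed day 7, -0.40 to 0.16 for delayed against immediate at day 14, -0.999 to 0.019 for delayed against immediate at day 7 and -3.56 to -2.54 for immediate day 21 against day 7. The log2 ratio Vegfa to Kdr ran from 5.44 to 6.07 for immediate day 7, 3.82 to 5.05 for delayed day 7, -0.087 to 0.69 for delayed against immediate at day 14 and -5.18 to -4.55 for immediate day 21 against day 7. The log2 ratio Flt1 to Kdr ran from -0.57 to 0.054 for immediate day 14, -0.26 to 0.13 for immediate day 21, 0.35 to 1.60 for delayed day 7, -0.13 to 0.29 for delayed day 14, -0.023 to 0.63 for delayed against immediate at day 14, -1.04 to 0.21 for delayed day 21 against day 7 and -1.32 to 0.069 for delayed against immediate at day 7.

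Groups of 3 to 5 libraries limit the precision more than depth does: the lowest count of a member in a library was 66. A group left with 2 libraries is assumed to vary like the others. The rise of Vegfa at day 7 over control and its fall from day 7 to days 14 and 21 passed under every setting run.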
